A study of Homo sapiens with 6 samples.

Results

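The KLF factors are DNA-binding proteins with 3 zinc fingers at the C-terminus that recognise CACCC and related GC-rich boxes, and they activate or repress transcription through different N-terminal parts. KLF1 drives the genes of red cell membrane, heme synthesis and globin in erythroid precursors. KLF2 and KLF4 are induced in endothelial cells by laminar flow, through a MEK5, ERK5 and MEF2 cascade, and maintain a quiescent, anticoagulant endothelium. Other members are broadly expressed and respond to TGFβ, serum or glucocorticoids.

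Expression of 10 KLF genes, KLF1, KLF2, KLF3, KLF4, KLF5, KLF6, KLF7, KLF9, KLF10 and KLF13, was examined in cells on the path from endothelium to blood. The genes were taken by symbol from a table of 58364 rows with values. Each of the 10 stood on 1 row, and all 10 had mean values of 0.5 FPKM or more over the libraries (FPKM being fragments mapped to a gene, per kilobase of its transcripts and relative to the depth), the filter that left 15895 genes for testing.

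The cells came from H1, an established human embryonic stem cell line, and were collected at day 8 of differentiation towards blood. The 6 bulk RNA-seq libraries were 2 of wild-type cells (WT) and 4 of MSX2-knockout cells (MSX2-/-), made with a CRISPR guide against exon 2 of MSX2, a homeobox gene. The 4 came from 2 knockout lines, each grown from 1 clone, with replicates 1 and 2 of each. All cells were differentiated under 1 protocol, which the labels give as activin A at 40 ng/ml and BMP4 at 50 ng/ml for 2 days, then VEGF at 40 ng/ml and bFGF at 50 ng/ml for 2 days. The study sorted CD31+ cells, although the labels state CD31+ for MSX2-/- only, and the same protocol text names HAND1 overexpression, which the study does not describe. PECAM1, which encodes CD31, was at 218 and 258 FPKM in WT and at 186 to 230 FPKM in MSX2-/-.

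MSX2 mRNA was at 3.64 and 1.44 FPKM in WT and at 5.62 to 31.8 FPKM in the libraries labelled MSX2-/-. The targeted mRNA was thus higher in all 4 libraries labelled MSX2-/- and did not check the labels, on which every direction given here rests. The study speaks of independent experiments in general, but nothing ties the replicates of these libraries to separate differentiations, so p-values measure the spread between these libraries, which may be technical. Over all libraries, 13366 to 14222 genes had at least 1 FPKM. The number of reads was unknown, and no counting interval was given. In bulk RNA, fewer cells of a type and less RNA per cell cannot be told apart.

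The DNA just before the start sites of KLF1, KLF2 and KLF4 is shown because these are the erythroid and the flow-responsive members. Each line holds the 250 bases before the start site on the strand of the gene, from RefSeq on GRCh38.p14. Capitals mark a GATAA box, which GATA1 can bind, read on the opposite strand in KLF1 (chr19:12887202-12887451, minus strand), and a MEF2 motif in KLF2 (chr19:16324576-16324825, plus strand). Nothing is in capitals in KLF4 (chr9:107489770-107490019, minus strand).
KLF1: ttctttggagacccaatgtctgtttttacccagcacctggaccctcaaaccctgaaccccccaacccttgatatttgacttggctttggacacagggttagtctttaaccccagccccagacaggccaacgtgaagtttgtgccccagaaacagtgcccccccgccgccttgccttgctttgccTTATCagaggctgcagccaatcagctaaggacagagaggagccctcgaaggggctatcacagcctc
KLF2: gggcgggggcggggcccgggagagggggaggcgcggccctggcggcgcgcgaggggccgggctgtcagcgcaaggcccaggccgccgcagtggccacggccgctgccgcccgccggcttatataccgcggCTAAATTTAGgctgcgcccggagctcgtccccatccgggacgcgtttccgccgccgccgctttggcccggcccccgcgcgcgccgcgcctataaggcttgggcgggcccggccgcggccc
KLF4: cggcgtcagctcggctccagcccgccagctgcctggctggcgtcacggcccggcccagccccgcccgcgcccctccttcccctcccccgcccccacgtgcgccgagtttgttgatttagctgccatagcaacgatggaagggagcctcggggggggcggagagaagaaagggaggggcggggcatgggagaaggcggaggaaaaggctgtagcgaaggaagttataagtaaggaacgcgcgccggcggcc
The motifs GATAA, MEF2, CACCC and CArG, the last being the serum response factor box, were searched on both strands of 35116 such windows. GATAA was found in 20.4% of windows, CACCC in 54.7%, the MEF2 motif in 0.515% and CArG in 1.16%. The KLF1 window held 1 GATAA, 66 to 62 bases before the start, and the KLF2 window held 1 MEF2 motif, 120 to 111 bases before it. CACCC was found in none of these 3 windows. These matches describe letters and are not evidence of binding. KLF3 and KLF10 had no window in the table used.

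Among the 10 genes, the levels spread widely and KLF1 changed its place. In WT, KLF2 and KLF6 were the most abundant, with means of 64.2 ± 38.3 and 56.2 ± 4.56 FPKM (SD, n = 2), and their ranges overlapped. KLF3 followed at 21.4 ± 2.77, KLF7 at 13.3 ± 0.828, KLF1 at 11.0 ± 1.77 and KLF10 at 8.21 ± 1.83 FPKM, with no overlap between neighbours in this order. KLF4, at 4.28 ± 3.83 FPKM, overlapped with both KLF10 and KLF13 (1.89 ± 0.0104 FPKM). KLF5 at 0.509 ± 0.228 and KLF9 at 0.384 ± 0.302 FPKM were lowest and overlapped with each other. In MSX2-/-, KLF1 moved from the fifth to the third place, at 43.6 ± 12.9 FPKM (SD, n = 4). There it overlapped with KLF6 (50.2 ± 5.14 FPKM), and lay above KLF3 (22.2 ± 2.35 FPKM) in every library. The plot of FPKM by library shows these levels.

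**Figure D1:**
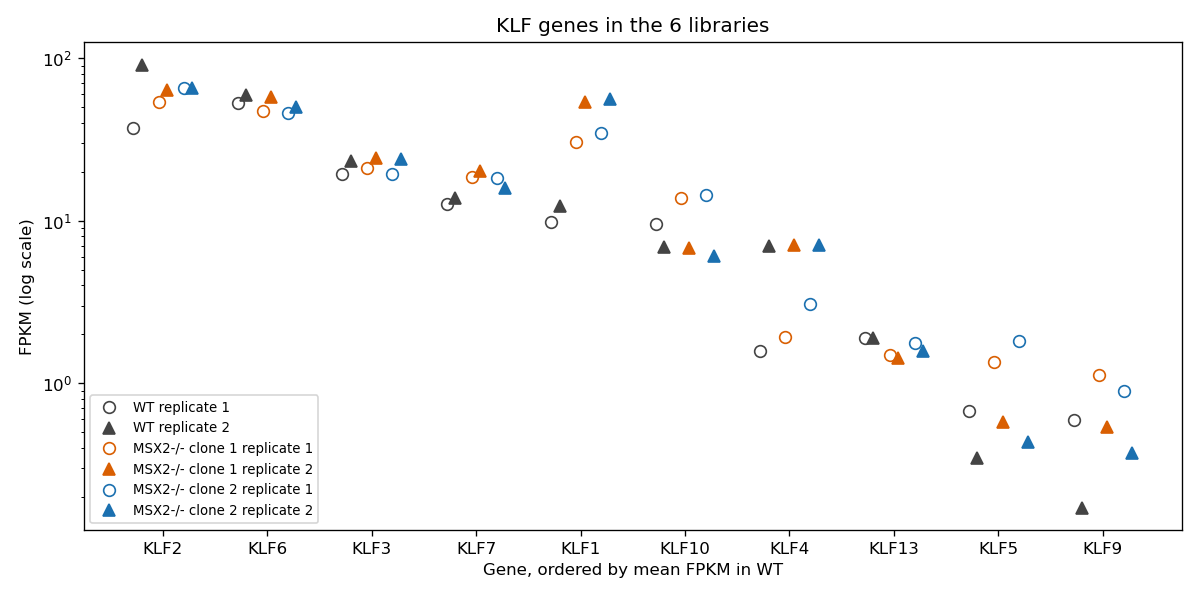
FPKM of the 10 KLF genes on a log axis, ordered by the WT mean, with 1 point per library (open circles replicate 1, filled triangles replicate 2). KLF1 is at 9.78 and 12.3 FPKM in WT and at 30.4 to 55.8 FPKM in MSX2-/-, whereas KLF3, KLF4, KLF5, KLF9 and KLF10 separate by replicate number.

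MSX2-/- was compared with WT to ask which KLF genes differed when MSX2 was disrupted. KLF1 rose, and none of the other 9 genes passed the test. The value of KLF1 was 9.78 and 12.3 FPKM in WT, 30.4 and 53.3 FPKM in clone 1 and 34.8 and 55.8 FPKM in clone 2. All 4 MSX2-/- libraries were above both WT libraries, and the ratio of the means was 3.95. On the scale of log2(FPKM + 1), the difference was 1.85 (SE 0.28, 95% interval 1.18 to 2.52, adjusted p = 0.0394, limma). With the replicate number as a block, SE was 0.12 and adjusted p = 0.0015 (limma). Without the block the call did not survive the loss of any single library, at adjusted p of 0.0654 to 0.272 (limma) with differences of 1.70 to 2.00. With the block it survived the loss of each, at adjusted p of 0.0052 to 0.011 (limma).

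This 1 gene in 10 called higher stands beside 0.963% of all genes called higher and 0.321% called lower. With the block the member called was again KLF1, whereas the share of all genes rose to 6.11% higher and 3.74% lower, the shares against which every list count with the block is to be read. KLF1 and KLF7 were above both WT libraries in all 4 MSX2-/- libraries, against 12.1% of all genes, and KLF13 was below both, against 9.19%. The groups overlapped for the other 7 genes. An exact permutation test over libraries (two-sided) gave p = 0.0667 for KLF1 and KLF7. This is the smallest value that 4 against 2 libraries allow, so the test cannot pass 0.05 for a single gene. It takes the libraries as exchangeable, without regard to line or replicate number. Genotype varied only between the WT line and the 2 clones, so genotype and line cannot be told apart.

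**Figure D2:**
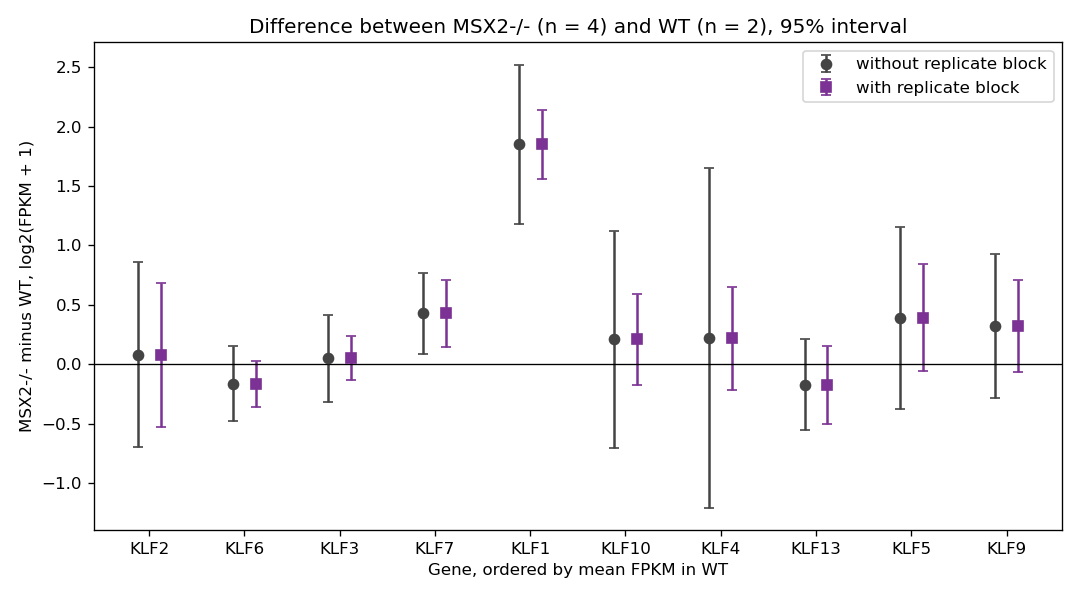
Difference of mean log2(FPKM + 1), MSX2-/- (n = 4) minus WT (n = 2), with 95% intervals from limma without (circles) and with (squares) the replicate block. The KLF1 interval is 1.18 to 2.52 without the block, and the other member whose interval lies off 0 is KLF7, which did not pass after adjustment.

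The KLF1 difference was present within each replicate number and each clone. Within replicate 1, clone 1 and clone 2 exceeded WT by 1.54 and 1.73, and within replicate 2 by 2.03 and 2.10 (log2(FPKM + 1)). As ratios of FPKM these were 3.11, 3.56, 4.34 and 4.55. The difference in replicate 2 exceeded that in replicate 1 by 0.43 (SE 0.16), which did not pass (adjusted p = 0.437, limma). Against WT in a fit of 3 groups, clone 1 gave 1.79 (adjusted p = 0.249, limma) and clone 2 gave 1.91 (adjusted p = 0.215, limma). With the replicate block both clones passed, at adjusted p = 0.0112 and 0.0087 (limma). Clone 2 minus clone 1 was 0.13, with a 95% interval of -0.75 to 1.01 without and -0.24 to 0.49 with the block.

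No member was called between the clones by limma, with or without the block, and 0 had an unadjusted p under 0.05. The differences between clones ranged from -0.18 for KLF7 to 0.24 for KLF4. The intervals were wide, so that the clones were not shown to be alike.

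The genes around KLF1 were described from lists of its partners and targets. These 2 lists have no gene in common, but both share genes with the marker lists below. Of 8 transcription factors that act with KLF1 in erythroid cells, 2 rose and 0 fell, and 6 rose and 0 fell with the block. The median difference was 0.85, beside 0.0081 over all genes. NFE2, the globin locus activator, rose from 11.2 and 12.2 FPKM to 30.3 to 35.6 FPKM (difference 1.40, adjusted p = 0.011, limma). GATA1, the master erythroid factor, rose from 7.68 and 8.90 FPKM to 17.5 to 20.8 FPKM (1.15, adjusted p = 0.022, limma). ZFPM1 (0.99), which encodes the GATA1 cofactor FOG1, and the repressor GFI1B (1.17) rose with the block only, at adjusted p = 0.0048 and 0.0029 (limma). LMO2, a bridging protein and the most abundant of the list, did not pass (difference 0.20).

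The level of KLF1 was set against those of 3 factors of the erythroid programme. The ratio of KLF1 to GATA1 in FPKM was 1.27 and 1.38 in WT and 1.69 to 2.73 in MSX2-/-. The ratio of KLF1 to TAL1, the basic helix-loop-helix factor of the erythroid complex, was 0.291 and 0.292 in WT and 0.636 to 0.820 in MSX2-/-. The groups did not overlap for either ratio, whereas for KLF1 to NFE2 they did, at 0.871 and 1.004 in WT and 0.977 to 1.75 in MSX2-/-. These ratios of FPKM were not tested.

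Of 23 known KLF1 targets in red cell membrane, heme synthesis and other roles, without the globins, 17 passed the filter on low values. Of these 5 rose and 0 fell, and 8 rose and 0 fell with the block, with a median difference of 0.52. ALAS2, the erythroid enzyme that starts heme synthesis, rose from 7.48 and 9.28 FPKM to 42.2 to 84.8 FPKM (2.64, adjusted p = 0.0152, limma). RHAG, a Rh complex channel, rose from 7.45 and 8.87 FPKM to 32.7 to 35.4 FPKM (1.94, adjusted p = 0.0053, limma). CD44, an adhesion receptor, rose from 35.9 and 36.2 FPKM to 94.6 to 157 FPKM (1.75, adjusted p = 0.0172, limma). For each of these 3, every MSX2-/- library was above both WT libraries. Among the 17, this held for 10, beside 12.1% of all genes. The groups overlapped for 6, and 3 differences were negative. GYPC was below both WT libraries in all 4 MSX2-/- libraries, beside 9.19% of all genes. Neither GYPC (-0.32, adjusted p = 0.374, limma) nor BCAM (-0.63, adjusted p = 0.474, limma) passed.

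Most globin genes had positive differences, but HBG2 and KLF1 ran in a different order across the libraries. None of 9 tested globin genes of 10 was called by limma with or without the block (5 and 1 at an unadjusted p under 0.05). The difference was positive for 8 of them and negative for 1, with a median of 0.85. HBG2, the most abundant, was at 51.7 and 37.3 FPKM in WT, at 124 and 197 FPKM in replicate 1 of the clones and at 42.0 and 39.0 FPKM in replicate 2. Replicate 2 of each clone thus held more KLF1 and less HBG2 than replicate 1. Reads of HBG2 and its near copy HBG1 may be divided by the counting, and the HBG2 value is uncertain to that extent. AHSP, the chaperone of alpha globin, was listed at 0 in all libraries.

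**Figure D3:**
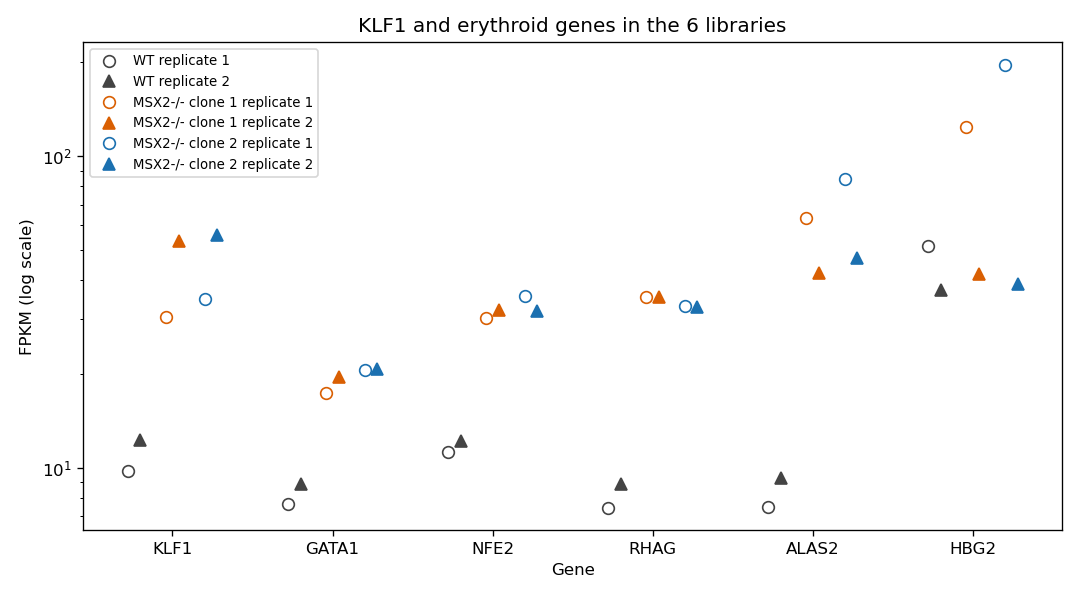
FPKM on a log axis of KLF1, its partners GATA1 and NFE2, the targets RHAG and ALAS2, and HBG2, with 1 point per library. The first 5 genes are higher in all 4 MSX2-/- libraries than in both WT libraries, while HBG2 in replicate 2 of MSX2-/- (42.0 and 39.0 FPKM) lies within the WT range of 37.3 to 51.7.

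Sums of markers of several cell types were set beside KLF1. The summed FPKM of 11 erythroid markers was 119 and 96.5 in WT. It was 398 and 561 in replicate 1 of the clones and 179 and 174 in replicate 2, where KLF1 was higher. These markers include globin genes such as HBG2, so the sum in part repeats the values above. Of the erythroid markers 2 were called higher, both already counted among the KLF1 targets. AHSP was at 0 and HEMGN at 0 to 0.046 FPKM. For 14 hematopoietic markers the sum was 165 and 213 in WT and 221 to 362 in MSX2-/-. The 1 called higher was GATA1, already counted as a partner, and the pan-leukocyte gene PTPRC was at 0 to 0.115 FPKM. For 12 mesenchymal markers it was 295 and 346 in WT and 510 to 597 in MSX2-/-, with 2 called higher. For 18 endothelial markers it was 4472 and 4925 in WT and 3374 to 4484 in MSX2-/-. Of these 3 were called lower, among them CDH5, which is counted again among the flow genes below. Cardiac and pluripotency markers were also higher in sum. For 10 cardiac markers the sum was 46.7 and 63.6 in WT and 92.6 to 128 in MSX2-/-, with 1 called higher and 3 with the block. For 9 pluripotency markers it was 64.8 and 75.1 in WT and 84.5 to 102 in MSX2-/-, with 0 called by limma (0 at an unadjusted p under 0.05) and 1 with the block. The calls refer to the markers tested, 8 erythroid, 11 hematopoietic, 10 mesenchymal, 18 endothelial, 6 cardiac and 5 pluripotency genes. The sums of endothelial, megakaryocyte, myeloid and endoderm markers overlapped between the groups. The part of these cells in the KLF1 difference was not tested.

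The 5 genes whose log2(FPKM + 1) correlated most with KLF1 over the 6 libraries, among 9545 genes whose mean reached 5 FPKM, were KCNN2, TMEM14C, TMEM120B, FZD5 and NFATC1, at Pearson's r of 0.994 to 0.998. FZD5, a WNT receptor, was at 1.28 and 1.46 FPKM in WT and at 5.11 to 8.43 FPKM in MSX2-/-. The 6 points share 2 genotypes and 2 replicate numbers, and 191 genes had r above 0.95.

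KLF2, the main flow-responsive factor of endothelium, was not called between the groups and ran in opposite directions in the replicate numbers. It was at 37.1 and 91.3 FPKM in WT, at 53.7 and 63.2 FPKM in clone 1 and at 65.3 and 65.4 FPKM in clone 2. Both the lowest and the highest library were WT, and all MSX2-/- libraries lay between them. The difference was 0.08 (SE 0.33, 95% interval -0.70 to 0.86, adjusted p = 0.972, limma). Within replicate 1 the clones exceeded WT by 0.52 and 0.80, and within replicate 2 the differences were -0.52 and -0.47. The difference in replicate 2 minus that in replicate 1 was -1.16 (SE 0.19, adjusted p = 0.314, limma), and it did not pass.

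KLF4, which shares targets with KLF2, followed the replicate number. It was at 1.57 FPKM in WT replicate 1, at 1.91 and 3.06 FPKM in replicate 1 of the clones, and at 6.99, 7.10 and 7.10 FPKM in the 3 libraries of replicate 2. The difference between MSX2-/- and WT was 0.22 (95% interval -1.21 to 1.65, adjusted p = 0.958, limma). The ratio of KLF4 to KLF2 was 0.0356 to 0.0469 in replicate 1 and 0.0766 to 0.112 in replicate 2, with no overlap.

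**Figure D4:**
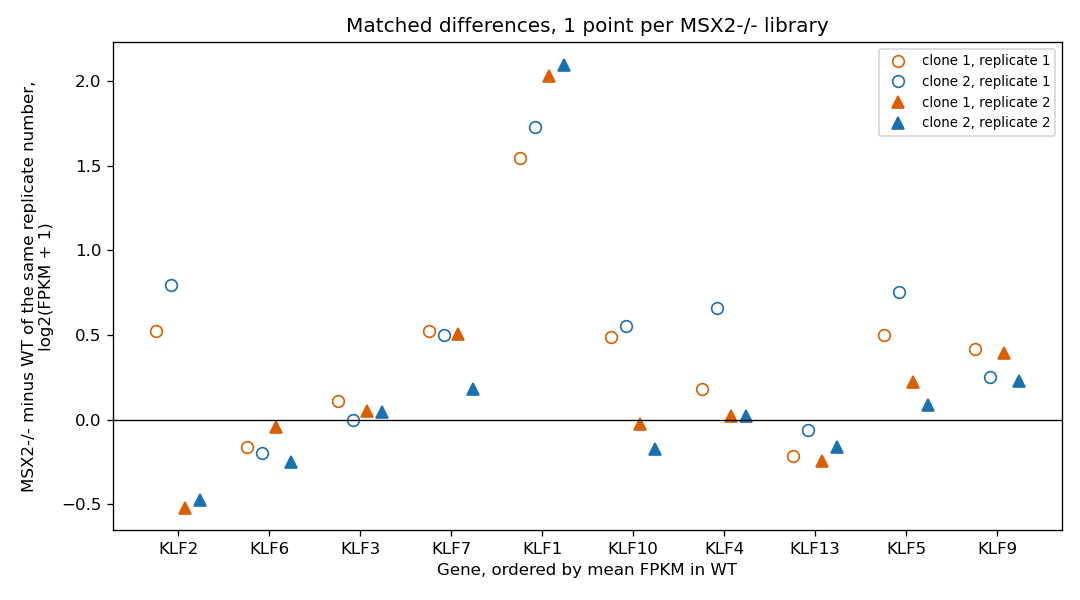
MSX2-/- minus WT of the same replicate number in log2(FPKM + 1), with 1 point per MSX2-/- library (open circles replicate 1, filled triangles replicate 2, colours the clones). All 4 points of KLF1 lie at 1.54 to 2.10, while those of KLF2 are at 0.52 and 0.80 in replicate 1 and at -0.52 and -0.47 in replicate 2.

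The genes above and below KLF2 and KLF4 were then counted. Of 22 genes upstream in flow sensing, activators and inhibitors counted together, CDH5 fell, and with the block CDH5 and KDR fell and 0 rose. The median difference was -0.05. CDH5, VE-cadherin of the junctional mechanosensory complex, was at 423 and 379 FPKM in WT and at 230 to 269 FPKM in MSX2-/- (-0.65, adjusted p = 0.0453, limma). KDR, a VEGF receptor of that complex, was at 666 and 779 FPKM in WT and at 434 to 590 FPKM in MSX2-/- (-0.50, adjusted p = 0.0112 with the block, limma). PLXND1, a mechanosensor and the most abundant of the list, did not pass (-0.19).

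Genes that KLF2 and KLF4 are known to induce did not move as 1 group. Of 17 genes 16 were tested, and limma called 0 without the block (7 at an unadjusted p under 0.05). With it 1 rose and 5 fell. The median difference was -0.42. TFPI2, a protease inhibitor, rose with the block (1.45, adjusted p = 0.0036, limma), whereas the angiopoietin receptor gene TEK (-0.84, adjusted p = 0.017), CALCRL, the adrenomedullin receptor (-0.83, adjusted p = 0.004), ADAMTS9 (-0.75, adjusted p = 0.0499) and connexin 37, GJA4 (-0.71, adjusted p = 0.0323), fell in that fit of limma. GJA4 was the most abundant, at 728 and 535 FPKM in WT and at 338 to 412 FPKM in MSX2-/-.

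Among 10 genes that KLF2 and KLF4 are known to repress, 8 were tested. EDN1 rose and 0 fell without the block, and 3 rose and 1 fell with it, at a median difference of 0.60. EDN1, endothelin 1, was at 2.53 and 2.97 FPKM in WT and at 8.16 to 16.2 FPKM in MSX2-/- (1.72, adjusted p = 0.0385, limma). SELE, the adhesion molecule E-selectin, was at 19.1 and 18.7 FPKM in WT and at 39.0 to 90.1 FPKM in MSX2-/- (1.71, adjusted p = 0.0172 with the block, limma). RHOB (0.65), a small GTPase gene and the most abundant, also rose with the block, and the caveolin gene CAV1 fell (-1.10), at adjusted p = 0.0178 and 0.0117 (limma). KLF2 and KLF4 themselves were not called in this comparison, with or without the block.

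For KLF2, the 5 genes of highest Pearson's r over the 6 libraries were DDHD2, RASL10B, CD81, ARMC1 and SIX5, at r of 0.968 to 0.987, and 13 genes exceeded 0.95. CD81, a tetraspanin, was at 250 FPKM in WT replicate 1, 306 FPKM in WT replicate 2 and 280 to 288 FPKM in MSX2-/-. As CD81 was picked for its correlation with KLF2, sharing its order of groups is not a separate result.

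Of the remaining members, KLF10 differed between the replicate numbers. KLF10 is an early response gene of TGFβ that acts as a repressor. It was at 9.50 and 6.91 FPKM in WT, at 13.7 and 6.77 FPKM in clone 1 and at 14.4 and 6.03 FPKM in clone 2, so that replicate 1 was higher in each line. The difference between MSX2-/- and WT was 0.21 (95% interval -0.70 to 1.12, adjusted p = 0.932, limma). It was 0.49 and 0.55 within replicate 1 and -0.03 and -0.17 within replicate 2, and the change between them, -0.62 (SE 0.18), did not pass (adjusted p = 0.388, limma). No member passed this test of the interaction in limma, 2 had an unadjusted p under 0.05, and 0.0189% of all genes were called.

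Other genes of SMAD signalling or early TGFβ response were counted beside KLF10. The direction of that response was left aside, so the counts give no direction for the pathway. Of 14, ID2 rose and 0 fell without the block, and 8 rose and 0 fell with it, at a median difference of 0.70. ID2, an inhibitor of basic helix-loop-helix factors, was at 52.2 and 63.8 FPKM in WT and at 116 to 178 FPKM in MSX2-/- (1.26, adjusted p = 0.0404, limma). TGFBI, an extracellular matrix protein (1.48), and CCN1, listed as CYR61 (1.48), rose with the block, at adjusted p = 0.0184 and 0.0015 (limma). SKI, a repressor of SMAD signalling and the most abundant, did not pass (0.27).

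KLF6, an immediate-early gene of endothelial injury, did not pass. It was at 53.0 and 59.4 FPKM in WT, at 47.3 and 57.5 FPKM in clone 1 and at 46.1 and 49.8 FPKM in clone 2. Each MSX2-/- library was below WT of its own number, although the groups overlapped. The share of all genes with such agreement was not counted. The difference was -0.16 (95% interval -0.48 to 0.15, adjusted p = 0.752, limma). Of 24 immediate-early genes 22 were tested, ZFP36 rose and 0 fell, and 11 rose and 0 fell with the block, at a median difference of 0.54. ZFP36, which destabilises AU-rich mRNAs, was at 9.84 and 14.7 FPKM in WT and at 24.5 to 31.2 FPKM in MSX2-/- (1.18, adjusted p = 0.0441, limma). The orphan receptor gene NR4A1 (2.10) and the AP-1 gene FOSL1 (1.23) rose with the block, at adjusted p = 0.0017 and 0.0458 (limma), and JUND, the most abundant, did not pass (0.08).

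KLF7, known for its part in neuronal outgrowth, was at 12.7 and 13.8 FPKM in WT, at 18.6 and 20.1 FPKM in clone 1 and at 18.3 and 15.8 FPKM in clone 2. All 4 MSX2-/- libraries were above WT. The difference of 0.43 (SE 0.14, 95% interval 0.08 to 0.77) did not pass without the block (adjusted p = 0.294, limma) or with it (adjusted p = 0.073, limma). KLF7 overlaps the genes KLF7-IT1, MIR2355 and MIR7845 in GENCODE, and the use of strand is not given in the sources used here.

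KLF3, a repressor that binds the corepressor CtBP and is itself a KLF1 target, was at 19.4 and 23.3 FPKM in WT, at 21.04 and 24.2 FPKM in clone 1 and at 19.4 and 24.04 FPKM in clone 2. The groups overlapped. Its difference was 0.05 (SE 0.15), with a 95% interval of -0.31 to 0.42, and of -0.14 to 0.24 in the blocked fit. KLF3 overlaps KLF3-AS1 on the opposite strand, so that reads of both may be mixed. Of 11 corepressors and coactivators of KLF proteins, limma called 0 without the block (2 at an unadjusted p under 0.05), and FHL3, a LIM-domain partner of KLF3, rose with it (0.36, adjusted p = 0.0236, limma). This 1 of 11 is close to the 6.11% of all genes called higher in that fit. The median difference was -0.12, and CTBP1, the most abundant, did not pass (-0.14).

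KLF13, a regulator of lymphoid and erythroid genes, was at 1.90 and 1.88 FPKM in WT, at 1.498 and 1.44 FPKM in clone 1 and at 1.77 and 1.58 FPKM in clone 2. All 4 MSX2-/- libraries were below WT, at a difference of -0.17 (95% interval -0.55 to 0.21, adjusted p = 0.803, limma).

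KLF5 and KLF9 were low. KLF5, a factor of epithelial and stem cell proliferation, was at 0.670 and 0.348 FPKM in WT, at 1.36 and 0.574 FPKM in clone 1 and at 1.82 and 0.432 FPKM in clone 2. KLF9, a target of glucocorticoid and thyroid hormone receptors, was at 0.597 and 0.171 FPKM in WT, at 1.13 and 0.541 FPKM in clone 1 and at 0.897 and 0.373 FPKM in clone 2. Each MSX2-/- library was above WT of its own number in both genes, although the groups overlapped. The differences of 0.39 and 0.32 did not pass (adjusted p = 0.759 and 0.744, limma), and on this scale they understate ratios at such levels.

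Like KLF5, epithelial markers were highest in replicate 1 of the clones. Their summed FPKM over 8 genes was 156 and 132 in WT, 403 and 222 in clone 1 and 509 and 210 in clone 2. With the block 5 of the 8 rose and 0 fell, and 5 were lower in replicate 2. The part of epithelial cells in the KLF5 values was not tested. Of 12 glucocorticoid-induced genes 11 were tested, limma called 0 without the block (6 at an unadjusted p under 0.05), and 6 rose and 1 fell with it, at a median difference of 0.53. SGK1, a kinase (1.42), and DUSP1, a phosphatase of MAP kinases (0.76), rose with the block at adjusted p = 0.0016 and 0.0036 (limma). MT2A (1.54) and MT1X (1.48), metallothioneins of a family of near copies, rose there at adjusted p = 0.0083 and 0.0278 (limma), and TSC22D3, the most abundant, did not pass (0.09).

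Replicate 2 was compared with replicate 1 over the 3 lines, each taken as a block, because the labels give each number its own letter. KLF1 and KLF4 were higher in replicate 2 and KLF10 was lower. These 2 of 10 higher and 1 of 10 lower are close to the shares of all genes, 12.5% called higher and 15.5% called lower. A difference between the replicate numbers is thus not particular to these members. KLF4 was higher by 1.37 (SE 0.17, adjusted p = 0.0067, limma), at ratios of 4.45 in WT, 3.72 in clone 1 and 2.32 in clone 2. KLF1 was higher by 0.59 (SE 0.12, adjusted p = 0.0212, limma), at ratios of 1.26, 1.75 and 1.61, and was not called without the line block (adjusted p = 0.583, limma). KLF10 differed by -0.82 (SE 0.16, adjusted p = 0.0205, limma), at ratios of 0.727, 0.493 and 0.419.

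KLF5 (-0.62, adjusted p = 0.0625), KLF9 (-0.46, adjusted p = 0.0797) and KLF3 (0.25, adjusted p = 0.0812) did not pass in limma, although each had 1 direction in all 3 lines. The share of all genes with 1 direction in all 3 lines was not counted. KLF2 was higher in replicate 2 by 0.50 on average (adjusted p = 0.176, limma), at ratios of 2.46 in WT, 1.18 in clone 1 and 1.002 in clone 2. Without the libraries of clone 1 or of clone 2, KLF4 alone was called, and KLF1 (adjusted p = 0.105 and 0.0848, limma) and KLF10 (adjusted p = 0.0857 and 0.077, limma) were not.

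**Figure D5:**
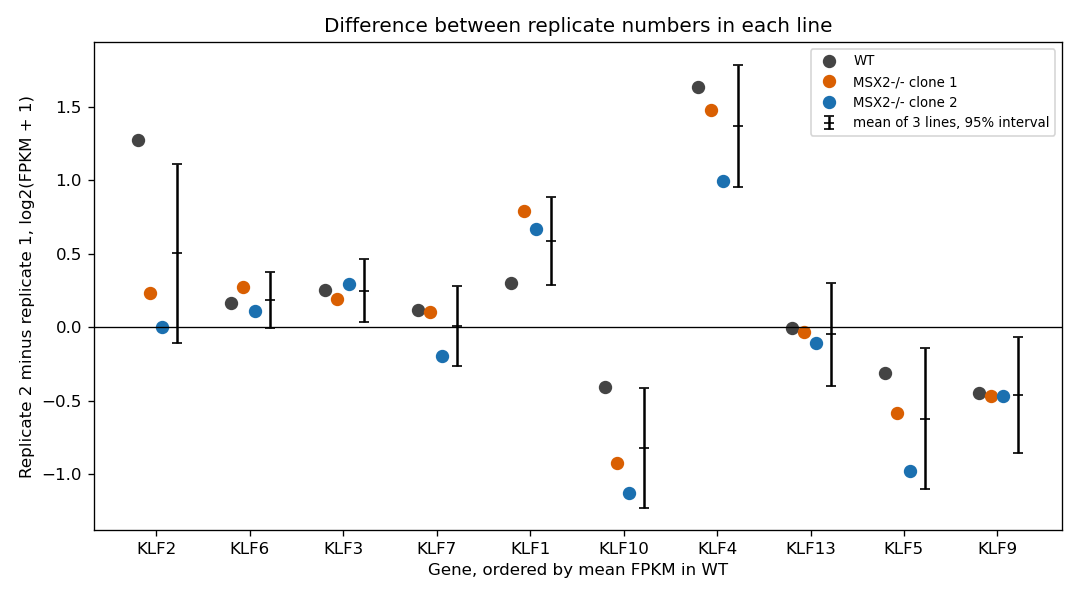
Replicate 2 minus replicate 1 in log2(FPKM + 1) for WT and both MSX2-/- clones (points), with the mean of the 3 lines and its 95% interval from limma (bars). KLF4 is higher in replicate 2 in each line, KLF10 is lower in each, and KLF2 is higher by 1.27 in WT and by 0.23 and 0.0025 in the clones.

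The rest of the family was set beside the 10 genes. Of 7 other KLF genes 5 were tested, limma called 0 with or without the block (3 and 0 at an unadjusted p under 0.05), and the median difference was -0.11. KLF16, the most abundant of them, was at 22.5 and 18.8 FPKM in WT and at 22.7 to 31.8 FPKM in MSX2-/-. Of 9 SP genes, the nearest relatives of the KLF family, 8 were tested, with a median difference of 0.12. Without the block 0 were called by limma (1 at an unadjusted p under 0.05), and with it SP6, a factor of tooth and skin epithelium, rose. SP6 was at 22.8 and 37.7 FPKM in WT, at 57.9 and 81.9 FPKM in clone 1 and at 50.1 and 84.1 FPKM in clone 2 (1.16, adjusted p = 0.149 without and 0.0016 with the block, limma).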

How the data were processed

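RNA-seq was analysed from 6 libraries (2 WT, 4 MSX2-/-). The authors deposited FPKM values, 1 column per library and 1 row per gene, with replicates not pooled. The labels name BWA, Bowtie, RSEM and hg19, the series text also names TopHat and Cufflinks, and which tool made the table was not settled. Versions, annotation and strand use are not given in the sources used here. Clones carry the numbers 1 and 2 in the table and 7 and 10 in the labels, and no source links them.

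Depth, relative to WT replicate 1, was 1.02 to 1.18 from the ratio of values under 0.1 FPKM. The difference of log2(FPKM + 1) was tested with limma 3.58.1 in R 4.3.3, with a mean-variance trend, for the 15895 genes whose mean reached 0.5 FPKM, 4 libraries against 2, with Benjamini-Hochberg adjustment and a threshold of 0.05. Log2 fold changes on this scale understate those of low genes. The fits were tested on simulated data. The replicate number served as a block in the alternative fit. It was taken to pair the libraries because every number has a letter of its own in the labels, and because the differences between replicates correlated across genes at 0.508 (WT and clone 1), 0.54 (WT and clone 2) and 0.636 (both clones). Other fits compared the replicate numbers with line as a block, 3 groups, and the interaction, which had 2 residual degrees of freedom.

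The genes and lists were chosen with earlier results of these data known. All 10 KLF genes were named, and of each list at most 4 genes past the threshold with or without the block, by absolute difference, plus the most abundant. Results of withheld genes are not reported here, and the lists leave them out. HBG1, PTPRC, HEMGN, AHSP, PECAM1 and TAL1, outside that rule, were named as markers or references. GYPC and BCAM, also outside it, were named as KLF1 targets with negative differences. Promoter sequences are from RefSeq, and overlaps from GENCODE. Alternatives were the block, a pseudocount of 0.1, no filter, a minimum of 2 FPKM, rescaled libraries, summed rows, 3 groups, each clone, and leaving out each library or line.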

Additional observations from a re-analysis of the deposited data

Results flagged for a closer look

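KLF2 and KLF10 were flagged because both clones differed one way from WT in replicate 1 and the opposite way in replicate 2. Within a replicate number both clones are set against the same WT library, so their agreement is not independent. The share of all genes with this pattern was not counted. For KLF2, the flow-responsive factor, the difference in replicate 2 minus that in replicate 1 was -1.16 on the log2(FPKM + 1) scale, and for KLF10, the early TGFβ response gene, it was -0.62. Neither passed the interaction test in limma, at adjusted p = 0.314 and 0.388. For KLF2 the WT libraries, at 37.1 and 91.3 FPKM, lay further apart than the MSX2-/- libraries, at 53.7 to 65.4 FPKM.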

How the results depend on the processing

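The direction of KLF1 was the same under every alternative run, whereas its call was not. Of all genes, 204 were called, against 1566 with the replicate block, 125 with no filter, 6 with 3 groups, 1003 with 3 groups and the block, 1 for each clone alone, and 19 to 82 without 1 library. The number of members called was 1, and 0 (2 at an unadjusted p under 0.05, limma) with no filter and with 3 groups, 0 for each clone alone and 0 without any 1 library. The KLF1 adjusted p was 0.105 with no filter and 0.121 with 3 groups (limma), and 0.0211 with the block and no filter, an alternative chosen after seeing the data, as was leaving out libraries with the block. The block changed no other call of a member. Over the losses of 1 library, the difference ranged from -0.56 to 0.72 for KLF2, from -0.60 to 1.04 for KLF4 and from -0.076 to 0.18 for KLF3, with the lowest values without WT replicate 1. For clone 1 alone, KLF2 was at -0.00077. Between replicate numbers, 3 members were called, against 0 with no filter (7 at an unadjusted p under 0.05, limma), 2 with no line block, where KLF1 was lost (adjusted p = 0.583, limma), and 1 each without clone 1 and without clone 2. There KLF7 turned to -0.047 without WT and -0.039 without clone 1. The cause of these changes was not tested. With 2 WT libraries, and no read numbers, members under 1 FPKM are the least precisely known.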
